A study of Mus musculus with 10 samples.

Results

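The 40 genes described here are interferon-stimulated antiviral genes of the mouse, chosen by name as type I interferon response genes. Earlier results of these data were known when this list and the others were chosen. The shares of called genes below therefore describe the lists and are not an independent test of them. All 40 were found by symbol among 53465 genes of the count table, all had counts, and all passed the filter on low counts that left 14110 genes for testing. RNA was sequenced from erythroblasts, the dividing precursors of red blood cells, taken from spleens of C57BL/6 mice 11 days after 5-FU, a drug that kills dividing blood precursors. The genotypes were Nrf2/miR-144/451-/- (here double-null, n = 3), miR-144/451-/- (miR-144/451-null, n = 2, replicates 1 and 3), Nrf2-/- (Nrf2-null, n = 3) and wild type (n = 2, replicates 1 and 3). Every group received 5-FU, so all values describe a spleen recovering from that drug. The cells were isolated with magnetic beads from Miltenyi Biotec. The labels give no age or sex, and no promoter or Cre driver for the deleted alleles. Libraries are numbered with no mouse named, so every p-value here reflects spread among libraries, which may be technical.

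A cell that meets type I interferon signals through a receptor of IFNAR1 and IFNAR2 chains and the kinases JAK1 and TYK2 to transcription factors of the STAT family. STAT2 and IRF9 are subunits of the complex ISGF3, which binds the interferon-stimulated response element (ISRE) in promoters. The genes it switches on sense viral RNA, degrade it, block its translation or tag proteins with the ubiquitin-like protein ISG15. IRF7 in turn drives interferon genes themselves. The microRNAs of the miR-144/451 cluster accumulate as red cells mature, and Nrf2 (gene Nfe2l2) switches on antioxidant genes.

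The cluster's microRNAs are shown because their seeds (bases 2 to 8, in capitals) define the target sites that were searched for in the 40 genes. The RefSeq mature sequences, on build GRCm38.p6, lie at chr11:78073047-78073066 for miR-144-3p and at chr11:78073186-78073207 for miR-451a, both on the plus strand.
mmu-miR-144-3p: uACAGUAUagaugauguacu
mmu-miR-451a: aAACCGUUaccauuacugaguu
A site that pairs with the miR-144-3p seed was present in the longest annotated 3' UTR of 2 of the 40 genes (5%), Dtx3l and Trim30a, against 2601 of 21193 genes (12.3%). A site for miR-451a was present in 0 of 40, against 414 of 21193 genes (1.95%).

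Promoter windows of the group were examined for the ISRE. RefSeq windows from 250 bases before to 50 bases after the start were available for 30 of the 40 genes. The ISRE core was searched as GAAA, a pair of any bases and GAAA again, or on the other strand as TTTC, a pair of any bases and TTTC; overlapping matches were counted. It was found in 12 of 30 genes (40%), against 1079 of 27025 genes with a window (3.99%). A match describes letters and not a bound site. The 5 stretches below have 1 core each in capitals, read 5' to 3' on the gene's strand, and come from a factor gene and 4 effector genes whose levels follow.
Stat2: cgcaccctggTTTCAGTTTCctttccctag
Oas3: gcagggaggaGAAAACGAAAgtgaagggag
Isg15: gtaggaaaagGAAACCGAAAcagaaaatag
Ifit1: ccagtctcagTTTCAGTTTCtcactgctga
Bst2: ccaggaaaatGAAACTGAAAggctgcagtt
On GRCm38.p6 these are chr10:128270266-128270295 (plus strand), chr5:120777715-120777744 (minus), chr4:156200871-156200900 (minus), chr19:34640794-34640823 (plus) and chr8:71537577-71537606 (minus). Isg15 held 3 overlapping cores, and Ifit1, Ifit3, Bst2 and Oas1a held 2 each in 1 window.

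**Figure D1:**
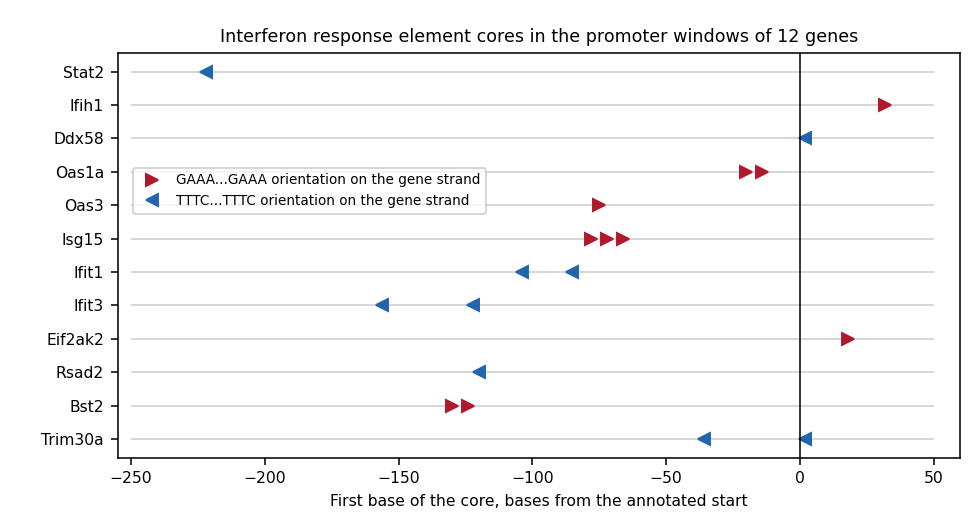
Distance in bases from the annotated start to the first base of each ISRE core, for the 12 genes that hold one in their RefSeq window (250 bases before to 50 after the start); triangles point right or left by orientation on the gene's strand. In 8 genes every core lies before the start; those of Ddx58, Eif2ak2 and Ifih1 lie after it, from 2, 18 and 32 bases on, and Trim30a, with 2 annotated starts, has a core before 1 of them and after the other.

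Each library held 13087827 to 15131036 counts, of which globin genes took 7.08% to 12.18%. Mir144 had 0 counts in all 5 double-null and miR-144/451-null libraries and 9 to 17 in each Nrf2-null and wild type library. Nfe2l2 counts over the whole gene gave 46.1 to 55.6 CPM in Nrf2-null libraries and 58.2 and 63.5 CPM in wild type; without knowing which exons were deleted, this does not check the Nrf2 label. By Xist and Y-linked counts, double-null replicate 3 and both wild type libraries were female and the other 7 male, so either single null against wild type cannot be told apart from male against female. Erythroid markers were abundant in every library: the 12 fixed markers, globin included, summed to 132480 to 162540 CPM in double-null libraries, 93312 to 105990 CPM in miR-144/451-null libraries, 115440 to 149500 CPM in Nrf2-null libraries and 97938 to 137040 CPM in wild type libraries.

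Most of the 40 antiviral genes fell in double-null erythroblasts when set against Nrf2-null ones, which compares cells with and without the cluster where Nrf2 is missing. Of 40 genes, 29 fell, 0 rose and 11 did not pass an adjusted p of 0.05, by edgeR's quasi-likelihood test adjusted over all 14110 genes, of which 12.9% were called lower. The median log2 fold change over the 40 was -1.46, against 0.02 over all genes tested, and 39 of 40 were below 0. Before adjustment 35 of 40 were lower at p under 0.05, against 19.6% of all genes. In 34 of 40 genes every double-null library lay below every Nrf2-null library, as in 21.8% of all genes tested. Lower expression in a library of sorted cells can mean fewer cells of a type or less RNA per cell, which cannot be told apart in these data. The 40 genes took 0.319% to 0.475% of all counts in double-null libraries and 0.712% to 0.886% in Nrf2-null libraries.

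**Figure D2:**
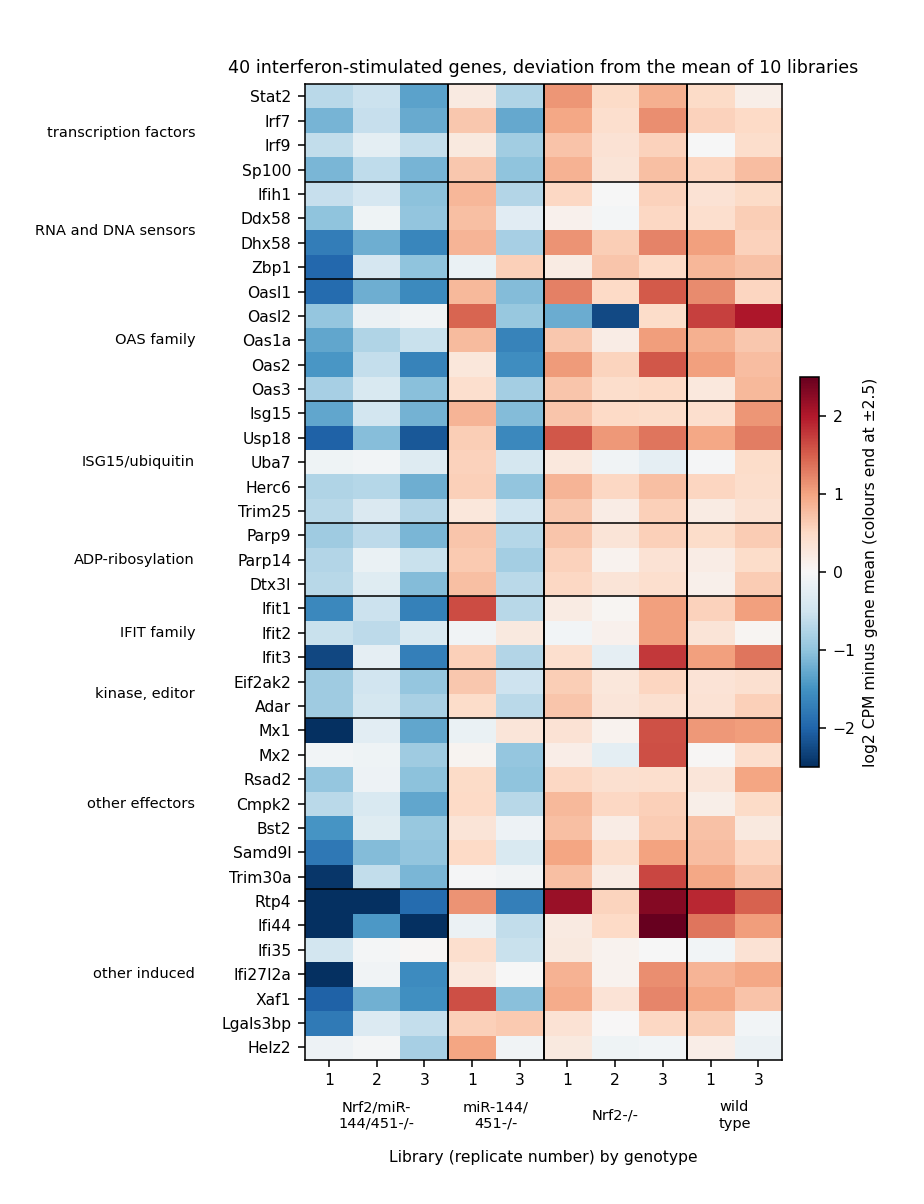
Log2 CPM of each gene minus its mean over the 10 libraries, by genotype and replicate number, with genes in rows grouped by role; blue is below and red above the gene's mean. The 3 double-null columns and miR-144/451-null replicate 3 are blue for most genes, while miR-144/451-null replicate 1 resembles the Nrf2-null and wild type columns.

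All 4 transcription factor genes fell. Stat2, the subunit of ISGF3 that carries its activation domain, had 45.0, 49.2 and 28.2 normalised CPM (counts relative to the scaled library total) in double-null libraries and 154, 99.8 and 132 CPM in Nrf2-null libraries. The groups lay apart, and the log2 fold change was -1.66 ± 0.29 (SE; adjusted p = 0.00297, edgeR). Irf9, the DNA-binding subunit, had 127, 164 and 128 CPM in double-null and 318, 250 and 289 CPM in Nrf2-null libraries (-1.04 ± 0.25, adjusted p = 0.0135, edgeR). Irf7 had 70.3, 105 and 65.3 CPM in double-null and 306, 210 and 351 CPM in Nrf2-null libraries (-1.85 ± 0.44, adjusted p = 0.0134, edgeR). For Irf7 and Irf9, as for most of the genes, double-null replicate 2 was the highest of its group and Nrf2-null replicate 2 the lowest of its own. Sp100, a component of nuclear PML bodies, had 87.0, 124 and 85.2 CPM in double-null and 349, 240 and 322 CPM in Nrf2-null libraries (-1.62 ± 0.37, adjusted p = 0.0112, edgeR). Irf7 missed the threshold without double-null replicate 1 (adjusted p = 0.052, edgeR) and Irf9 without double-null replicate 3 (adjusted p = 0.0591, edgeR).

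Of the 4 sensor genes, 2 fell. Dhx58, which encodes LGP2, a regulator of RIG-I-like RNA sensing, had 4.09, 5.85 and 4.40 CPM in double-null and 30.6, 21.3 and 33.2 CPM in Nrf2-null libraries (-2.57 ± 0.40, adjusted p = 0.00157, edgeR). Zbp1, a sensor of Z-form nucleic acids that can trigger cell death, had 1.12, 3.50 and 2.31 CPM in double-null and 5.52, 7.82 and 6.73 CPM in Nrf2-null libraries (-1.53 ± 0.38, adjusted p = 0.0125, edgeR). The groups did not overlap for either gene. Ifih1, which encodes the long double-stranded RNA sensor MDA5, had 70.6, 78.6 and 51.2 CPM in double-null and 150, 105 and 157 CPM in Nrf2-null libraries, with an adjusted p of 0.055 (-1.04 ± 0.35, edgeR). Ddx58, which encodes RIG-I, had 7.58, 14.1 and 7.71 CPM in double-null and 16.6, 14.9 and 22.0 CPM in Nrf2-null libraries, with an adjusted p of 0.0638 (-0.86 ± 0.31, edgeR). These groups also lay apart, though for Ddx58 by a narrow gap. DESeq2 called both Ifih1 and Ddx58 lower.

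The OAS family encodes enzymes that make oligoadenylates, which switch on RNase L, and related proteins without that activity. Of 5 genes, 3 fell. Oasl1, an OAS-like protein known in mouse to limit Irf7 translation, had 3.87, 6.38 and 4.90 CPM in double-null and 36.3, 21.4 and 44.3 CPM in Nrf2-null libraries (-2.75 ± 0.49, adjusted p = 0.00369, edgeR). Oas2 had 9.44, 17.2 and 8.14 CPM in double-null and 55.0, 38.6 and 76.8 CPM in Nrf2-null libraries (-2.29 ± 0.48, adjusted p = 0.00767, edgeR). Oas3, the most abundant of the family, had 202, 275 and 173 CPM in double-null and 583, 484 and 507 CPM in Nrf2-null libraries (-1.28 ± 0.31, adjusted p = 0.0129, edgeR). The highest double-null library stayed below the lowest Nrf2-null library in all 3 of these genes. Without double-null replicate 3, Oas3 had an adjusted p of 0.055 (edgeR). Oas1a had 12.7, 18.5 and 21.4 CPM in double-null and 50.4, 35.7 and 64.7 CPM in Nrf2-null libraries, with an adjusted p of 0.0578 (-1.52 ± 0.52, edgeR); 68.8% of its 31-base stretches also occur in other transcripts, most often Oas1g, so its counts are uncertain. Oasl2 went another way from its chromosomal neighbour Oasl1: it had 20.0, 35.8 and 36.9 CPM in double-null and 16.6, 8.20 and 54.2 CPM in Nrf2-null libraries. The groups overlapped, and the difference of 0.23 ± 0.76 (adjusted p = 0.849, edgeR) changed sign without Nrf2-null replicate 1 or replicate 2 (-0.19) and reached 1.31 without replicate 3.

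**Figure D3:**
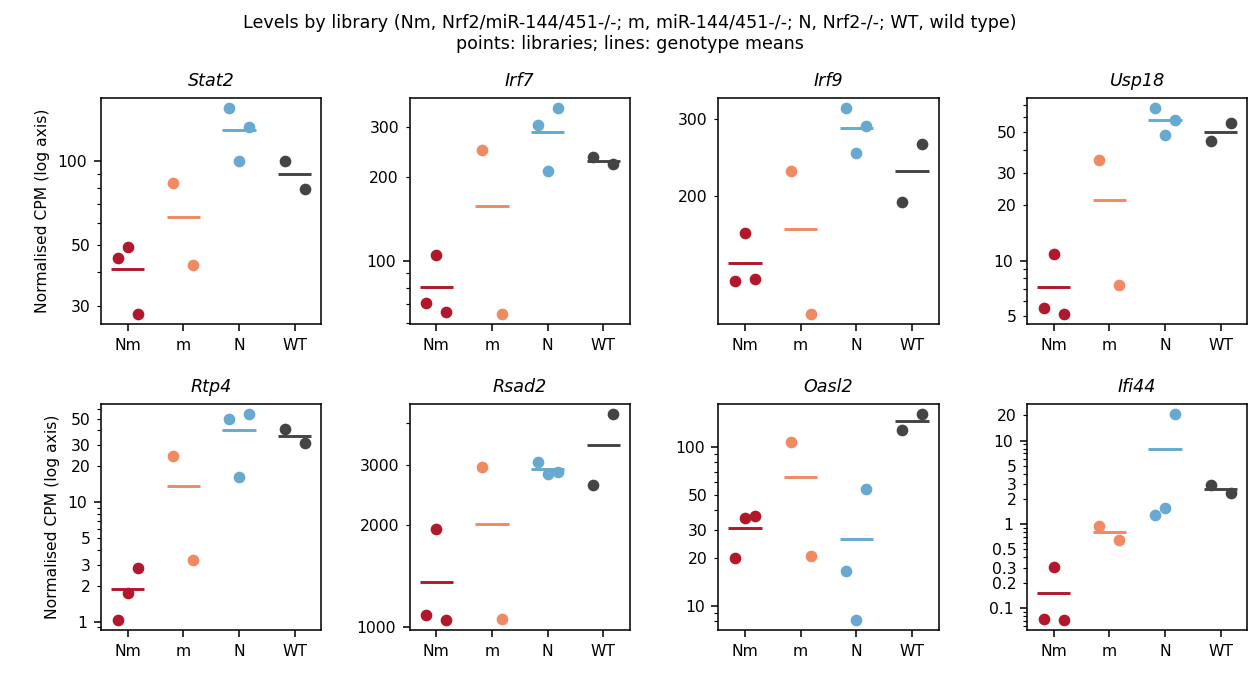
Normalised CPM (log axis) of 8 genes in each library; points are libraries and lines are means of double-null (Nm), miR-144/451-null (m), Nrf2-null (N) and wild type (WT). The double-null points lie below all Nrf2-null and wild type points for each gene shown except Oasl2, where Nrf2-null libraries spread from 8.20 to 54.2 CPM and wild type libraries had 128 and 162 CPM.

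Of 5 genes for ISG15 and the ubiquitin system, 4 fell. Usp18, the protease that removes ISG15 from proteins and damps receptor signalling, had 5.50, 10.9 and 5.12 CPM in double-null and 67.3, 48.4 and 58.0 CPM in Nrf2-null libraries (-3.02 ± 0.53, adjusted p = 0.0034, edgeR). Trim25, a ubiquitin ligase of the RIG-I pathway, had 98.1, 123 and 95.3 CPM in double-null and 253, 180 and 241 CPM in Nrf2-null libraries (-1.09 ± 0.21, adjusted p = 0.00352, edgeR). Herc6, the mouse ligase that attaches ISG15, had 47.3, 48.0 and 33.7 CPM in double-null and 143, 113 and 133 CPM in Nrf2-null libraries (-1.59 ± 0.33, adjusted p = 0.00736, edgeR). The spread within either group was small beside these differences. Isg15 itself had 155, 278 and 169 CPM in double-null and 617, 539 and 528 CPM in Nrf2-null libraries (-1.48 ± 0.44, adjusted p = 0.0345, edgeR). Its groups did not overlap, yet its call was lost without double-null replicate 1 (adjusted p = 0.112), double-null replicate 3 (0.0996), Nrf2-null replicate 1 (0.0797), Nrf2-null replicate 2 (0.0524) or wild type replicate 1 (0.0563), all by edgeR. Uba7, which activates ISG15 for transfer, ranged from 549 to 654 CPM in double-null and from 592 to 828 CPM in Nrf2-null libraries, with overlap and an adjusted p of 0.643 (-0.17 ± 0.25, edgeR).

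Among 3 genes of ADP-ribosylation, 2 fell. Parp9, which acts with the ligase DTX3L, had 43.4, 51.0 and 36.1 CPM in double-null and 130, 100 and 121 CPM in Nrf2-null libraries (-1.43 ± 0.30, adjusted p = 0.00781, edgeR). Dtx3l had 50.8, 66.7 and 38.6 CPM in double-null and 118, 104 and 111 CPM in Nrf2-null libraries (-1.09 ± 0.33, adjusted p = 0.0378, edgeR). Parp14 had 115, 169 and 129 CPM in double-null and 284, 203 and 247 CPM in Nrf2-null libraries, with an adjusted p of 0.0924 (-0.83 ± 0.33, edgeR). The groups lay apart in all 3 genes, which neighbour each other on chromosome 16. Dtx3l was called only when all of these libraries were kept: it was lost without any 1 of double-null replicates 1 and 3, the 3 Nrf2-null and the 2 wild type libraries, at adjusted p between 0.0505 and 0.124 (edgeR).

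Of the 3 IFIT genes, whose proteins bind foreign RNA ends, 2 fell, both at low levels. Ifit2 had 6.54, 6.15 and 7.42 CPM in double-null and 9.22, 10.5 and 20.0 CPM in Nrf2-null libraries (-0.98 ± 0.29, adjusted p = 0.027, edgeR). Ifit3 had 0.149, 1.06 and 0.288 CPM in double-null and 1.75, 1.05 and 4.67 CPM in Nrf2-null libraries (-2.30 ± 0.75, adjusted p = 0.0424, edgeR), and the groups touched; 61.8% of its 31-base stretches also occur in other transcripts, most often Ifit3b, so its counts are uncertain. Nrf2-null replicate 3 was the highest library for both, and without it the log2 fold changes were -0.56 for Ifit2 (adjusted p = 0.107) and -1.49 for Ifit3 (adjusted p = 0.177, edgeR). Ifit2 was also lost without any 1 double-null library (adjusted p from 0.0643 to 0.0691), and Ifit3 without double-null replicate 1 (0.12) or 3 (0.145), Nrf2-null replicate 1 (0.0627), or wild type replicate 1 (0.0606) or 3 (0.0633), by edgeR; without double-null replicate 2 the Ifit3 value was -3.45. Ifit1 had 12.3, 26.2 and 11.7 CPM in double-null and 43.9, 39.4 and 77.8 CPM in Nrf2-null libraries, lay apart, and had an adjusted p of 0.0602 (-1.68 ± 0.58, edgeR).

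Both genes for proteins that act on double-stranded RNA fell. Eif2ak2, which encodes the kinase PKR that stops translation, had 53.5, 71.7 and 50.6 CPM in double-null and 153, 122 and 144.4 CPM in Nrf2-null libraries (-1.25 ± 0.27, adjusted p = 0.00715, edgeR). Adar, which edits adenosine to inosine, had 78.4, 107 and 82.6 CPM in double-null and 233, 178 and 190 CPM in Nrf2-null libraries (-1.17 ± 0.26, adjusted p = 0.00863, edgeR). Neither pair of groups overlapped, and both calls held without any 1 library.

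Of 7 other antiviral effectors, 5 fell. Samd9l, which restricts viral translation, had 16.4, 26.7 and 28.7 CPM in double-null and 113, 77.1 and 115 CPM in Nrf2-null libraries (-2.09 ± 0.28), and its adjusted p of 0.000682 (edgeR) was the smallest of the 40. Bst2, the membrane tether of budding virus, had 3.64, 8.36 and 5.26 CPM in double-null and 17.6, 11.8 and 16.1 CPM in Nrf2-null libraries (-1.40 ± 0.30, adjusted p = 0.00655, edgeR). Trim30a had 3.49, 12.7 and 8.79 CPM in double-null and 33.2, 22.6 and 62.4 CPM in Nrf2-null libraries (-2.24 ± 0.47, adjusted p = 0.00748, edgeR). The groups lay apart in each. Cmpk2, a mitochondrial nucleotide kinase, had 140, 170 and 89.9 CPM in double-null and 391, 317 and 336 CPM in Nrf2-null libraries (-1.39 ± 0.31, adjusted p = 0.00946, edgeR). Its neighbour on chromosome 12, Rsad2, which encodes viperin, was the most abundant of the 40 in CPM, with 1086, 1947 and 1051 CPM in double-null and 3059, 2828 and 2868 CPM in Nrf2-null libraries. Viperin's gene also lay apart between the groups but had an adjusted p of 0.0556 (-1.10 ± 0.38, edgeR). The dynamin-like GTPase genes were low: Mx1 ranged from 0.223 to 1.90 CPM in double-null and from 2.48 to 7.27 CPM in Nrf2-null libraries (-2.09 ± 0.61, adjusted p = 0.0281, edgeR), and Mx2 from 0.865 to 1.64 and from 1.43 to 5.59 CPM (adjusted p = 0.148, edgeR). Mx1 was lost without double-null replicate 1 (adjusted p = 0.0577) or 3 (0.101), or Nrf2-null replicate 3, with -1.47 and an adjusted p of 0.11 (edgeR); without double-null replicate 2 its value was -2.94.

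Of the 7 remaining interferon-induced genes, 5 fell, and they included the largest fold changes of the 40. Rtp4, a chaperone of receptor trafficking, had 1.04, 1.75 and 2.81 CPM in double-null and 50.1, 16.3 and 55.0 CPM in Nrf2-null libraries (-4.43 ± 0.80, adjusted p = 0.00433, edgeR). Ifi44 had 1, 4 and 1 counts in double-null libraries and 19, 21 and 272 counts in Nrf2-null libraries, which gives 0.0743, 0.304 and 0.0721 CPM against 1.28, 1.58 and 20.8 CPM (-5.64 ± 1.30, adjusted p = 0.0118, edgeR). Nrf2-null replicate 3 sets the size of that value: without it the log2 fold change was -3.19, still past the threshold, whereas without double-null replicate 1 the adjusted p was 0.0512 (edgeR). Xaf1, known for binding the apoptosis inhibitor XIAP, had 6.39, 11.5 and 9.08 CPM in double-null and 50.4, 33.5 and 61.7 CPM in Nrf2-null libraries (-2.43 ± 0.58, adjusted p = 0.0144, edgeR; 0.0631 without double-null replicate 1). Ifi27l2a had 0.595, 3.88 and 1.30 CPM in double-null and 7.74, 4.44 and 9.49 CPM in Nrf2-null libraries (-1.91 ± 0.54, adjusted p = 0.0248, edgeR). Lgals3bp, a secreted galectin-binding protein, ranged from 8.995 to 24.2 CPM in double-null and from 31.1 to 44.3 CPM in Nrf2-null libraries (-1.10 ± 0.32, adjusted p = 0.0315, edgeR). Without double-null replicate 3 or Nrf2-null replicate 1 or 3, Ifi27l2a had adjusted p of 0.0997, 0.0648 and 0.074, and Lgals3bp of 0.0687, 0.0766 and 0.0796 (edgeR); without double-null replicate 2 Ifi27l2a was at -2.92. Ifi35 and Helz2 overlapped between groups, from 22.1 to 30.9 CPM in double-null against 30.3 to 36.0 CPM in Nrf2-null for Ifi35 and from 124 to 214 against 205 to 259 CPM for Helz2, with adjusted p of 0.448 and 0.424 (edgeR).

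**Figure D4:**
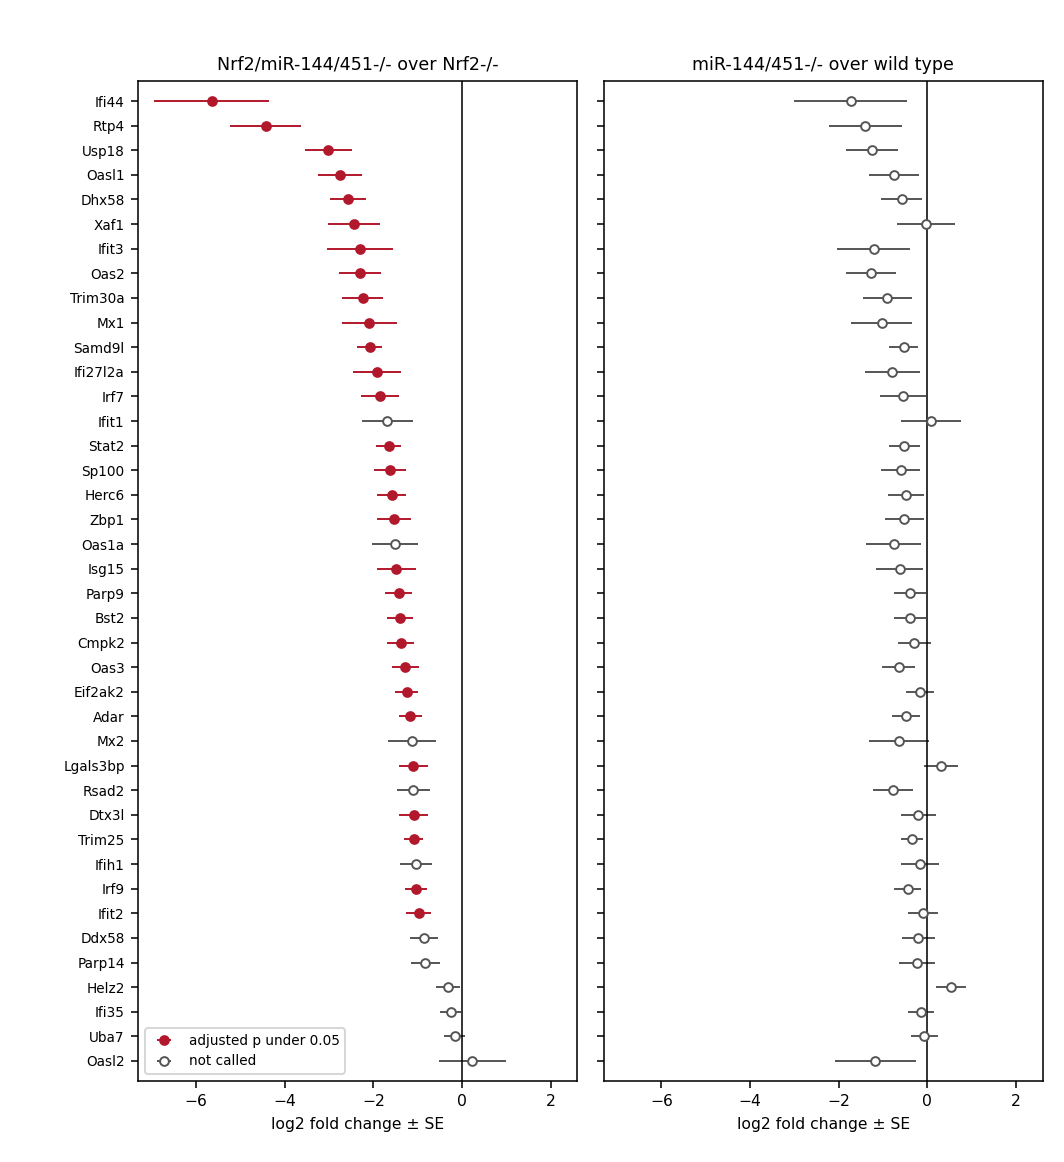
Log2 fold change ± SE of the 40 genes, double-null over Nrf2-null (left) and miR-144/451-null over wild type (right), in the order of the left panel; filled points passed an adjusted p of 0.05. On the left 29 points are filled and 39 lie below 0; on the right 0 are filled and 37 lie below 0.

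Leaving out 1 of the 10 libraries at a time gave 20 to 35 called genes in double-null against Nrf2-null, with 17 of the 29 calls kept throughout. The 20 came without double-null replicate 3, the female library of its group. Among the 7 male libraries, 11 of the 29 were called, with 2 double-null libraries left: Cmpk2, Dhx58, Herc6, Oas2, Oasl1, Rtp4, Samd9l, Stat2, Trim25, Trim30a and Usp18. The same 11 were called in all 18 alternative settings.

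Genes with and without an ISRE core were set side by side in the same comparison, with no test. Of the 12 genes that hold the core, 7 fell (median log2 fold change -1.44), of the 18 whose window lacks it, 14 fell (median -1.13), and of the 10 not matched to a window, 8 fell (median -1.999).

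With Nrf2 present, cluster loss gave 0 called genes of 40. In miR-144/451-null against wild type, 2.23% of all genes were called lower and 2.4% higher by edgeR; 1 of the 40, Oas2, had an unadjusted p under 0.05 (adjusted p = 0.272, edgeR), against 8.96% of all genes lower at that level, and DESeq2 called 0. The median was -0.52, against 0.02 over all genes, and 37 of 40 were below 0. In 11 of 40 both miR-144/451-null libraries lay below both wild type libraries, against 22.8% of all genes, so the share of 40 is near the background.

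The miR-144/451-null libraries differed from each other more than any other replicates did over these genes, where the next widest median difference within a genotype was 0.57 on the log2 scale. In replicate 1, 36 of 40 genes were higher than in replicate 3, by a median of 1.23 on the log2 scale (2.35-fold), while over all genes tested the median difference was -0.03. Stat2 had 83.2 CPM in miR-144/451-null replicate 1 and 42.2 CPM in replicate 3, against 100 and 79.1 CPM in wild type libraries. Irf7 had 249 CPM in replicate 1 and 64.4 CPM in replicate 3, against 235 and 221 CPM in wild type. Irf9 had 229 CPM in replicate 1 and 106 CPM in replicate 3, against 193 and 264 CPM in wild type. For the 3 factors, replicate 1 lay near wild type and replicate 3 near or below the double-null libraries. Rtp4 showed the widest gap, with 24.4 CPM in replicate 1 and 3.29 CPM in replicate 3, against 41.2 and 31.1 CPM in wild type. Xaf1 had 80.9 and 12.8 CPM in those miR-144/451-null libraries, against 52.0 and 43.5 CPM in wild type, and Ifit1 had 117 and 23.5 CPM against 56.8 and 77.0 CPM. Over the 40, replicate 3 was below both wild type libraries in 37 and within the double-null range in 20, and replicate 1 was above both wild type libraries in 14. Zbp1, Mx1, Ifit2 and Lgals3bp were higher in replicate 3. Without replicate 1 the median against wild type was -1.17 and 4 genes were called by edgeR; without replicate 3 the median was 0.02 and 0 were called.

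Nrf2 loss with the cluster present also gave 0 called genes of 40 by edgeR, against 0.191% of all genes tested (27 genes). The median was 0.02, and 23 of 40 were above 0. Nrf2-null libraries had 154, 99.8 and 132 CPM of Stat2, against 100 and 79.1 CPM in wild type, a difference of 0.52 ± 0.32 (adjusted p = 0.534, edgeR). Oasl2 alone had an unadjusted p under 0.05 by edgeR (adjusted p = 0.358), against 6.92% of all genes lower at that level, and DESeq2 called 0. It had 16.6, 8.20 and 54.2 CPM in Nrf2-null libraries, against 128 and 162 CPM in wild type (-2.46 ± 0.83). Groups lay apart, lower in Nrf2-null, for Oasl2 and Zbp1 (2 of 40, against 20.1% of all genes) and, higher in Nrf2-null, for Cmpk2 (1 of 40, against 15.7%).

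Double-null against wild type gave 23 genes lower and 0 higher, against 8.95% of all genes called lower and 8.26% called higher by edgeR. All 40 fold changes were below 0 (median -1.40, against -0.02 over all genes), and in 38 the groups lay apart, as in 25.3% of all genes. Samd9l had 16.4, 26.7 and 28.7 CPM in double-null, against 97.0 and 82.8 CPM in wild type (-1.91 ± 0.30, adjusted p = 0.0031, edgeR). Dhx58 had 4.09, 5.85 and 4.40 CPM in double-null, against 28.5 and 20.7 CPM in wild type (-2.36 ± 0.43, adjusted p = 0.00608, edgeR). Usp18 had 5.50, 10.9 and 5.12 CPM in double-null, against 44.7 and 55.9 CPM in wild type (-2.81 ± 0.55, adjusted p = 0.0102, edgeR). These 3 lay far apart between the groups, by more than the spread within either. Rtp4 differed by -4.27 ± 0.83 (1.04, 1.75 and 2.81 CPM in double-null, against 41.2 and 31.1 CPM in wild type; adjusted p = 0.0104, edgeR), and Zbp1 by -1.84 ± 0.41 (1.12, 3.50 and 2.31 CPM, against 8.50 and 7.98 CPM; adjusted p = 0.0124, edgeR). The count is sensitive to single libraries: 1 gene was called without wild type replicate 1, 4 without wild type replicate 3, 8 without double-null replicate 1 and 6 without double-null replicate 3. With a term for sex in the model, 0 of 40 were called by edgeR, while the median log2 fold change was -1.69. Both wild type libraries were female, and so was double-null replicate 3, whose median deviation over the 40 genes was -1.07, against 0.54 and 0.61 in the wild type libraries. This comparison shares its double-null libraries with the comparison against Nrf2-null.

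Nrf2 loss in the absence of the cluster, double-null against miR-144/451-null, gave 0 called genes of 40 by edgeR, against 0.0638% of all genes (9 genes). The median was -0.96, 39 of 40 were below 0, and 23 had an unadjusted p under 0.05, against 5.87% of all genes at that level in that direction. DESeq2 called 4. In 13 of 40 the groups lay apart, against 12.4% of all genes. Samd9l had 16.4, 26.7 and 28.7 CPM in double-null, against 80.7 and 43.4 CPM in miR-144/451-null libraries (-1.37 ± 0.30, adjusted p = 0.2, edgeR). Without miR-144/451-null replicate 3, 11 genes were called by edgeR, and without replicate 1 the median was -0.07 with 0 called.

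Whether cluster loss acted differently with and without Nrf2 was tested by the interaction. The edgeR test called 0 of 40, against 0.0638% of all genes (9 genes); 11 had an unadjusted p under 0.05 in the lower direction, against 2.2% of all genes, and DESeq2 called 0. The median interaction was -1.02 and lay below 0 for 39 genes, Oasl2 being the exception. With a term for sex in the model the median was -0.46 and 0 genes were called by edgeR. The interaction includes miR-144/451-null against wild type, which cannot be told apart from male against female. Samd9l had the smallest p (-1.55 ± 0.43, adjusted p = 0.929, edgeR). Without miR-144/451-null replicate 1 the median was -0.18 and 0 genes were called, and without replicate 3 it was -1.48 and 2 were called. A difference between the double-null response and the miR-144/451-null response was therefore not detected for any of the 40 in the main fit with the low-count filter. Without that filter, the edgeR test of all 10 libraries called 20 of the 40, 19 lower and 1 higher. The calls of the interaction thus depended on the filter.

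Some libraries of a genotype differed over most of the 40 genes in 1 direction, and others did not. Their median deviation from each gene's own mean was -1.07, -0.43 and -1.07 on the log2 scale in double-null replicates 1 to 3, 0.59 and -0.72 in replicates 1 and 3 of miR-144/451-null, 0.69, 0.31 and 0.69 in Nrf2-null replicates 1 to 3, and 0.54 and 0.61 in wild type replicates 1 and 3. Double-null replicate 2 exceeded replicate 1 in 38 of 40 genes, by a median of 0.57, and Nrf2-null replicate 1 exceeded replicate 2 in 37 of 40, by a median of 0.40. Double-null replicate 1 exceeded replicate 3 in 19 of 40, Nrf2-null replicate 1 exceeded replicate 3 in 19 of 40, and wild type replicate 1 exceeded replicate 3 in 18 of 40. Double-null replicates 3 and 1 were the lowest of the 10 libraries for 16 and 15 genes, and miR-144/451-null replicate 3 for 7. Nrf2-null replicate 3 was the highest for 14 genes, and Nrf2-null replicate 1 and miR-144/451-null replicate 1 for 10 each.

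Per length, Rsad2 and Isg15 led the 40 in every genotype. In deposited FPKM (counts scaled by gene length and by the library's total), Rsad2 averaged 301 FPKM in double-null, 502 FPKM in miR-144/451-null, 642 FPKM in Nrf2-null and 796 FPKM in wild type libraries. Isg15 averaged 255 FPKM in double-null, 617 FPKM in miR-144/451-null, 709 FPKM in Nrf2-null and 890 FPKM in wild type libraries. Uba7 came next in double-null and wild type, at a mean of 87.8 and 122 FPKM. At the other end Ifi44 averaged 0.0235 FPKM in double-null and 0.445 FPKM in wild type libraries, last of the 40 in both. Rsad2 alone took 30.6% to 41.9% of the 40 genes' counts.

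The signalling chain above these genes was examined through fixed lists. Of 8 receptor and kinase genes 1 fell in double-null against Nrf2-null, a share near the 12.9% of all genes, and 0 rose. The gene that fell was Ifnar2, with 62.2, 48.8 and 58.4 CPM in double-null and 79.8, 81.3 and 72.2 CPM in Nrf2-null libraries (-0.46 ± 0.12, adjusted p = 0.0181, edgeR). Jak2 and Jak1 differed by -0.33 ± 0.14 and 0.21 ± 0.15 (adjusted p = 0.114 and 0.329, edgeR). Neither kinase gene passed the test, and the groups of both overlapped.

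Interferon genes themselves were at or near 0. Of 21 ligand genes, 7 had any count and 1, Ifng, passed the low-count filter (-1.62 ± 0.71, adjusted p = 0.112, edgeR). Ifnb1 had 1 count in Nrf2-null replicate 1 and 7 in replicate 3, and 0 in the other 8 libraries.

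Among upstream sensors and adaptors, 3 of 12 tested rose and 2 fell in double-null against Nrf2-null. Of all genes, 14.4% rose and 12.9% fell in this comparison, so the share of the list that fell is near the background. Mavs, the mitochondrial adaptor of RIG-I and MDA5, had 206, 194 and 129 CPM in double-null and 57.1, 63.4 and 48.4 CPM in Nrf2-null libraries (1.65 ± 0.18, adjusted p = 0.000149, edgeR). Ticam1, the adaptor of TLR3, had 16.2, 15.1 and 15.1 CPM in double-null and 8.34, 7.44 and 7.57 CPM in Nrf2-null libraries (0.99 ± 0.19, adjusted p = 0.00334, edgeR). Both adaptors were higher in every library without the cluster. Mavs had 200 and 175 CPM in miR-144/451-null libraries, against 73.6 and 75.3 CPM in wild type (1.33 ± 0.22, adjusted p = 0.00845, edgeR), and Ticam1 had 17.95 and 16.2 CPM, against 6.19 and 9.28 CPM (1.15 ± 0.23, adjusted p = 0.0198, edgeR). These adaptor genes thus rose in double-null libraries while 29 of the 40 antiviral genes fell. Neither seed site was found in the 3' UTR of any of the 12 genes of this list with an annotated 3' UTR. Of the endosomal receptor genes in the list, Tlr7 and Tlr9 fell and Tlr3 did not pass (-1.49 ± 0.65, adjusted p = 0.11, edgeR). Tlr7 fell to 1.56, 2.28 and 2.59 CPM in double-null, against 7.40, 5.79 and 12.5 CPM in Nrf2-null libraries (-1.99 ± 0.39, adjusted p = 0.00381, edgeR), and Tlr9 fell to 1.12, 3.04 and 2.09 CPM, against 8.01, 4.51 and 10.3 CPM (-1.87 ± 0.50, adjusted p = 0.02, edgeR).

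Of 9 other interferon-regulated factor genes tested, 4 fell in double-null against Nrf2-null and 0 rose, where 12.9% of all genes fell. Pml, the scaffold of the nuclear bodies that hold SP100, had 157, 148 and 155 CPM in double-null and 407, 331 and 360 CPM in Nrf2-null libraries (-1.26 ± 0.13, adjusted p = 0.000142, edgeR). Sp110, of the same protein family as Sp100, had 12.9, 20.7 and 18.4 CPM in double-null and 46.4, 40.7 and 39.4 CPM in Nrf2-null libraries (-1.29 ± 0.19, adjusted p = 0.000833, edgeR). Irf5 and Irf8, factors of myeloid and B cells, fell by 1.56 ± 0.35 and 1.79 ± 0.45 on the log2 scale (adjusted p = 0.00788 and 0.0182, edgeR). All 4 had separate groups.

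Interferon-stimulated genes outside the 40 were counted in the same way. Of 32 tested, 24 fell and 0 rose in double-null against Nrf2-null, with a median of -1.52, where 12.9% of all genes fell. In double-null against wild type 21 of them fell, against 8.95% of all genes. In miR-144/451-null against wild type 2 of the 32 fell and 0 rose, against 2.23% of all genes called lower. At an unadjusted p under 0.05, 11 of the 32 were lower by edgeR, against 8.96% of all genes. In 16 of them the groups lay apart, lower in miR-144/451-null, against 22.8% of all genes. That comparison cannot be told apart from male against female. The IRG and GBP GTPases, a family that interferon gamma induces more strongly, had 10 of 15 tested lower and 0 higher in double-null against Nrf2-null (median -1.34). In double-null against wild type 7 of the 15 fell and 2 rose, and the same 2, Irgm2 and Igtp, rose in miR-144/451-null and in Nrf2-null against wild type, where 0 fell. Irgm2 had 109, 223 and 117 CPM in double-null, 288 and 245 CPM in miR-144/451-null, 239, 242 and 315 CPM in Nrf2-null and 45.6 and 73.3 CPM in wild type libraries. Igtp was likewise lowest in wild type, with 143 to 284 CPM in double-null, 230 and 320 CPM in miR-144/451-null, 250 to 313 CPM in Nrf2-null and 60.1 and 79.6 CPM in wild type libraries. The 40 antiviral genes held 0 calls higher than wild type in any genotype. Tgtp1 had 0.743, 0.532 and 0.648 CPM in double-null and 3.57, 2.11 and 3.37 CPM in Nrf2-null libraries (-2.22 ± 0.36, adjusted p = 0.00146, edgeR). Gbp9 had 3.64, 10.03 and 5.62 CPM in double-null and 21.3, 19.2 and 30.9 CPM in Nrf2-null libraries (-1.89 ± 0.35, adjusted p = 0.00362, edgeR). Neither Tgtp1 nor Gbp9 overlapped between the groups.

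B cell markers were also lower in double-null libraries. Of 11 B cell markers, 10 fell in double-null against Nrf2-null (median -1.83; 12.9% of all genes fell), and their summed level ranged from 357 to 787 CPM in double-null, from 723 to 981 CPM in miR-144/451-null, from 978 to 1121 CPM in Nrf2-null and from 1286 to 1639 in wild type libraries. No B cell marker was at 0 in all libraries of any genotype. Their part in the lower antiviral genes of double-null cells was not tested. In the miR-144/451-null pair the order was opposite. B cell markers summed to 723 CPM in replicate 1, where the 40 genes were high (8957 CPM summed), and to 981 CPM in replicate 3, where the 40 were low (3460 CPM). Double-null replicate 2 was the highest of its group for both sums (787 CPM of B cell markers, 4962 CPM of the 40 genes). Nrf2-null replicate 2 was the lowest of its group for both (978 and 7409 CPM). Wild type replicate 3 exceeded replicate 1 for both (1639 against 1286 CPM, and 10136 against 7492 CPM).

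Macrophage markers gave 0 of 11 called by edgeR in double-null against Nrf2-null, with 7 lower at an unadjusted p under 0.05 and 0 called by DESeq2. All 11 macrophage fold changes lay below 0, with a median of -1.425 on the log2 scale. Their sum ranged from 88.3 to 400 CPM in double-null, from 150 to 275 CPM in miR-144/451-null, from 339 to 1161 CPM in Nrf2-null and from 198 to 201 in wild type libraries, the 1161 being Nrf2-null replicate 3, the library with the highest Ifi44. Of T cell markers 1 of 10 fell (13.98 to 60.3 CPM summed in double-null, 61.5 to 82.1 in Nrf2-null), of NK cell markers 2 of 8 (4.01 to 17.02 and 20.7 to 35.3 CPM), of monocyte markers 1 of 6 (20.6 to 30.2 and 36.1 to 42.01 CPM) and of dendritic cell markers 1 of 6 tested (23.5 to 31.8 and 31.6 to 41.4 CPM). For T cell, monocyte and dendritic cell markers these shares lie near the 12.9% of all genes called lower. The NK cell share, 2 of 8, lies above it. All 10 T cell and all 8 NK cell fold changes were nevertheless below 0, with medians of -0.88 and -1.47. Of the 8 NK cell markers, 7 were lower at an unadjusted p under 0.05 (edgeR). Monocyte and dendritic cell markers had medians of -0.77 and -0.87, each with 5 fold changes below 0 and 1 above. Of 6 megakaryocyte markers 1 fell and 1 rose (148 to 197 CPM summed in double-null, 70.9 to 106 CPM in Nrf2-null). Neutrophil markers gave 0 of 11 called by edgeR and all 11 fold changes above 0, with 0 at an unadjusted p under 0.05 and 0 called by DESeq2; they summed to 1243 to 1363 CPM in double-null and to 189 to 1318 CPM in Nrf2-null libraries. Of 12 erythroblast markers 4 fell and 0 rose, where 12.9% of all genes fell and 14.4% rose. Their fold changes lay below 0 for 7 and above 0 for 5, up to 0.55 on the log2 scale. Of the 5, 1 was higher at an unadjusted p under 0.05 (edgeR). Those that fell included Klf1 (-1.10 ± 0.16), Ermap (-0.62 ± 0.15) and Epor (-0.48 ± 0.13), at adjusted p from 0.000785 to 0.0161 (edgeR). None of these lists had a marker at 0 in every library of a genotype, and their part in the result for the 40 genes was not tested.

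**Figure D5:**
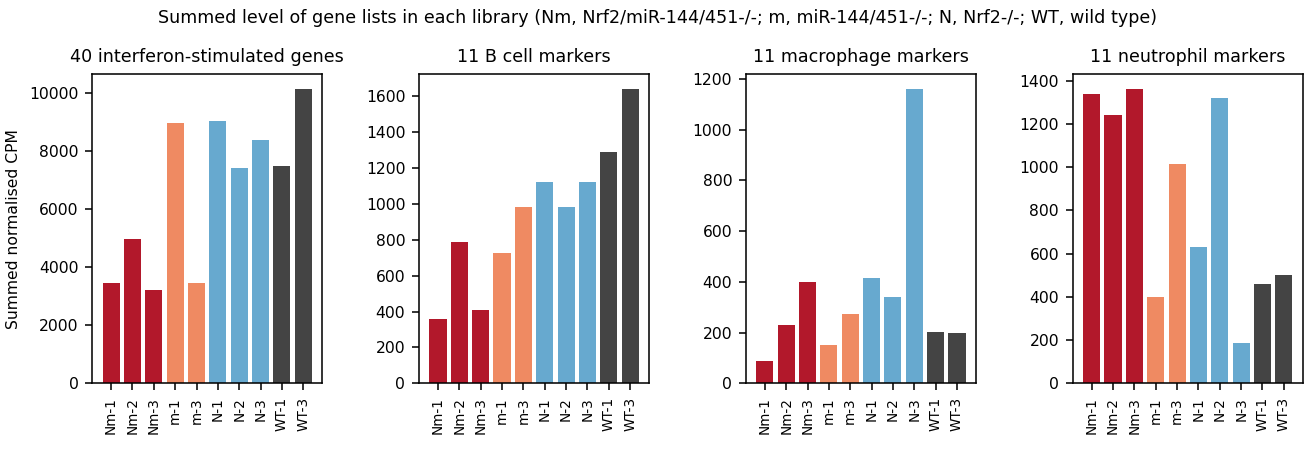
Summed normalised CPM of the 40 interferon-stimulated genes and of 11 B cell, 11 macrophage and 11 neutrophil markers in each library of double-null (Nm), miR-144/451-null (m), Nrf2-null (N) and wild type (WT) erythroblasts; bars start at 0. The antiviral sum is 3201 to 4962 CPM in double-null libraries and 7409 to 9017 CPM in Nrf2-null libraries, and the B cell sum is lowest in double-null replicates 1 and 3.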

How the data were processed

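The authors deposited raw counts for 53465 Ensembl genes in 10 libraries and, per library, FPKM values; all 196970 deposited FPKM values compared equalled the count over 1 gene length and the library total within 0.1%. Per the submitters' processing notes, CASAVA, Bowtie2 2.2.3, HISAT2 2.1.0, TopHat2 and mm9 were used; for the counting tool, the annotation and strandedness, the entry is not given in the sources used here, so overlapping or antisense genes were not told apart. Per the labels' protocols, RNA came by Trizol and libraries from a VAHTS Universal kit.

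One fit of all 10 libraries was made from the counts in R 4.3.3 with edgeR 4.0.16 (TMM, filterByExpr, robust quasi-likelihood test, two-sided, 6 residual degrees of freedom), with Benjamini-Hochberg adjustment over 14110 genes and a threshold of 0.05. The fit was also run on simulated data, with an outcome that is not reported here. SE is the log2 fold change over the root of F. Deviations use log2 CPM with a prior count of 2. Symbols came from GENCODE M21 (99.6% of IDs matched); sequences from RefSeq on GRCm38.p6, a later build than mm9, so no coordinate of the files was used. DESeq2 1.42.0, other scalings, no filter, a replicate block, a term for sex and leaving out libraries were alternatives. Members and lists were chosen with earlier results of these data known. Per-library values were given for Stat2, Irf9 and Irf7, for the 4 members of a role with the smallest p in double-null against Nrf2-null and for up to 5 called members of other comparisons; other members were given by range. Of the fixed lists, up to 4 genes were named by smallest p (2 of the GTPases); Ifnb1, Tlr3, Irgm2, Igtp, Oas1g, Ifit3b and the erythroblast markers were named after their values were seen. A few list genes this rule selects are left unreported here.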

Additional observations from a re-analysis of the deposited data

How the results depend on the processing

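In double-null against Nrf2-null every alternative run kept the median below 0; 20 to 35 genes were called when single libraries were left out, 21 with a term for sex and 11 among the male libraries alone. For miR-144/451-null against wild type, leaving out the low-count filter gave 8 called and leaving out single libraries 0 to 4. For Nrf2-null against wild type, no filter gave 2 and leaving out libraries 0 to 0. For double-null against wild type, no filter gave 35, the term for sex 0, and leaving out libraries 1 to 32. For double-null against miR-144/451-null, DESeq2 gave 4, no filter 31, and leaving out libraries 0 to 11. For the interaction, no filter gave 20 (19 lower and 1 higher) and leaving out libraries 0 to 2. The cause of these shifts was not tested. Without scaling factors the median log2 fold change of all genes stood at 0.15 in miR-144/451-null against wild type (497 genes called higher and 247 lower, against 338 and 315 with scaling), -0.12 in Nrf2-null against wild type, -0.11 in double-null against wild type (803 higher and 1433 lower, against 1165 and 1263), -0.24 in double-null against miR-144/451-null and -0.10 in the interaction. Oasl2 ran from -0.19 without Nrf2-null replicate 2 to 1.31 without replicate 3, and was also below 0 without replicate 1. Deviations of same-numbered double-null and Nrf2-null libraries correlated at 0.00408, -0.0607 and -0.0336, so replicate numbers showed no pairing of these groups. Same-numbered double-null and miR-144/451-null libraries correlated at 0.287 for replicate 1 and 0.013 for replicate 3. The differently numbered double-null replicate 2 and miR-144/451-null replicate 3 correlated at 0.286. With the replicate block 25 genes were called in double-null against Nrf2-null, 14 in double-null against wild type and 0 in the other comparisons. The ISRE core was found in 9 genes in the 250 bases before the start. With 2 or 3 libraries a group, SEs in double-null against Nrf2-null ran from 0.21 for Trim25 to 1.30 for Ifi44, so small differences in low genes were not detectable.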
